A study of Mus musculus with 12 samples.

Results

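The livers of female mice were compared for 297 small nucleolar RNAs (snoRNAs) and small Cajal body RNAs (scaRNAs), the rows to which the deposited table gives the biotype snoRNA (276 rows) or scaRNA (21 rows), out of 22557 rows in all. Of the 297, 88 carry a Snord name (box C/D RNAs), 38 a Snora name (box H/ACA RNAs), 9 a Scarna name and 162 only a provisional Gm name. The 12 libraries, 1 per mouse, form 4 groups of 3: Mtdh knockout (KO) mice bearing a Py8119 mammary tumour allograft, wild-type (WT) mice bearing the same tumour, KO mice without a tumour and WT mice without a tumour. Tumour-free and tumour-bearing mice were matched for age, which is not given, and the labels do not say how Mtdh was knocked out. Py8119 cells come from a mammary tumour of a mouse, and every library is whole liver, so fewer cells of a type and less RNA per cell cannot be told apart in any value below.

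snoRNAs guide chemical modification of other RNAs. Box C/D RNAs pair with ribosomal RNA and bring fibrillarin to add methyl groups to riboses, and box H/ACA RNAs hold dyskerin, which turns uridine into pseudouridine. scaRNAs do the same for the spliceosome's small nuclear RNAs in Cajal bodies. A few members (U3, U8, U13, U14 and U17) instead serve in cutting and folding the ribosomal RNA precursor, and most mammalian snoRNAs are cut from introns of host genes, many of which encode ribosomal proteins or are non-coding transcripts such as Gas5. U3, U8 and U13 have their own promoters.

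Values are the authors' normalized signal, reads estimated per gene and divided by a size factor for each library. The libraries were estimated to hold between 12700000 and 43000000 reads, the shallowest being tumour-bearing KO replicate 1. Mtdh read 1063, 380 and 323 in tumour-bearing KO livers against 5290, 3954 and 5702 in tumour-bearing WT livers, and 584, 436 and 627 in tumour-free KO livers against 4330, 5375 and 4973 in tumour-free WT livers, so each library matched its genotype label. The 8 hepatocyte markers summed to between 74196 and 139615 per 1000000 of signal in the 12 libraries. The snoRNA and scaRNA rows did not behave alike in every library. Their share of the signal was 4.98% in tumour-free KO replicate 3 (the column headed Normal-KO-4) against 0.287% to 1.35% in the other 11 libraries. A further 3 libraries are followed below, each set against the other 11. Of the 225 tested members with distinct values, 122 (54.2%) were lowest in tumour-bearing KO replicate 1, against 29.4% of all tested genes. In tumour-bearing WT replicate 3, 86 of these members (38.2%) were highest, against 10.2% of all tested genes. In tumour-free WT replicate 2, 54 of them (24%) were lowest, against 10.5% of all tested genes.

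**Figure D1:**
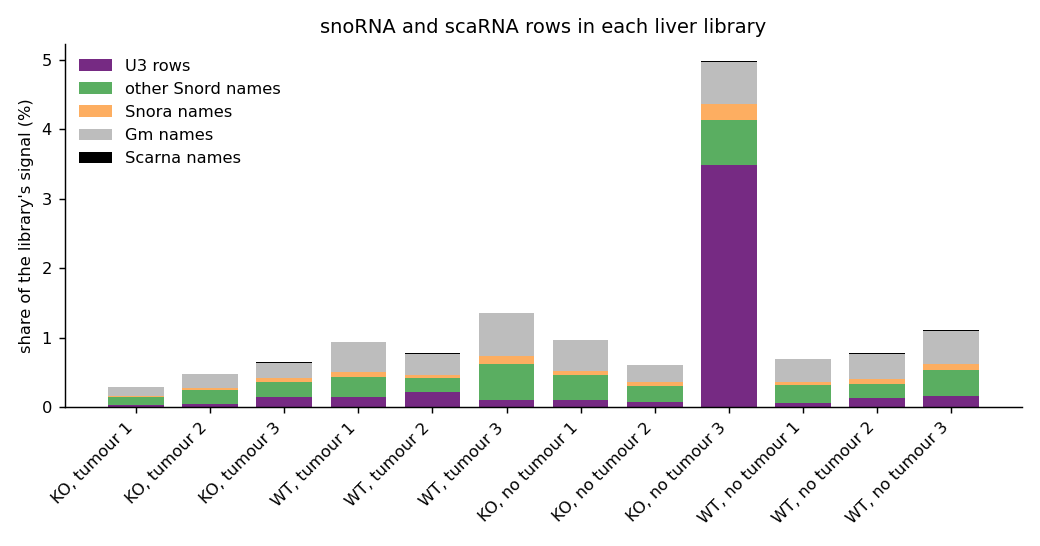
Share of each library's signal (%) held by the U3 rows, other Snord names, Snora names, Gm names and Scarna names. Tumour-free KO replicate 3 reaches 4.98%, of which the U3 rows make up 3.49%, and the other 11 libraries stay between 0.287% and 1.35%.

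The sequences of the members that the results turn on are given first, as the strand of the RNA, written with T. They come from GENCODE release M21, matched by gene identifier, and each has the length that the deposited table gives. Capitals mark TGATGA within the first 25 bases and CTGA within the last 25 bases, the letters of boxes C and D, or ACA followed by 3 last bases, the letters of box ACA. Snord3a, one of the U3 genes, is shown because the U3 rows dominate one library, and it met neither rule.
Snord3a: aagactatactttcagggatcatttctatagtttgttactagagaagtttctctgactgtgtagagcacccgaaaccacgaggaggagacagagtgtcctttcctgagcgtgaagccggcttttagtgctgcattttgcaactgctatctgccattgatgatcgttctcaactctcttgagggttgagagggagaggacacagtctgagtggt
Snord17 and Snora73a (U17) are shown as the Snord and Snora names with the highest level per length, and Gm25789 (in Gas5) as the member with the highest of all.
Snord17: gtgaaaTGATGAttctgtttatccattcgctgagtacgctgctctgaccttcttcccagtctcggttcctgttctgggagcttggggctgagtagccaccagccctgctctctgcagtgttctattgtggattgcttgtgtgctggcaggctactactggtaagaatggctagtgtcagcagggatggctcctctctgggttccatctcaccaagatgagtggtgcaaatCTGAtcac
Gm25789: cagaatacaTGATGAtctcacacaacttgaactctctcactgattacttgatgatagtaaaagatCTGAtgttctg
Snora73a: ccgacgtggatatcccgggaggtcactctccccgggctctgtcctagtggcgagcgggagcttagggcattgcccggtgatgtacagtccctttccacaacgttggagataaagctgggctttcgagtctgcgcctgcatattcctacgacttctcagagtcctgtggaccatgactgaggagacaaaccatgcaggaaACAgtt
Snord32a (in Rpl13a) and Gm23344 (in Rpl4) are shown as short C/D members.
Snord32a: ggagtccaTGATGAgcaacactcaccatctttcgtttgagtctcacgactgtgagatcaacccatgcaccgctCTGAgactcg
Gm23344: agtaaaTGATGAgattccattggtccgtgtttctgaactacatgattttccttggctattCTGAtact
Gm25117 (in Nap1l1) and Gm25492 (in Bud23) are shown because they had the smallest p-values among the members with lower values in tumour-bearing KO livers, and Gm25395 (in Atg16l1) because it had the highest ratio of tumour-free KO replicate 3 to the other libraries among members averaging at least 50.
Gm25117: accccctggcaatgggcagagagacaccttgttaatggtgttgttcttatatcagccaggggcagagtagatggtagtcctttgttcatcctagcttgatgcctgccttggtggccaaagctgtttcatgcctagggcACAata
Gm25492: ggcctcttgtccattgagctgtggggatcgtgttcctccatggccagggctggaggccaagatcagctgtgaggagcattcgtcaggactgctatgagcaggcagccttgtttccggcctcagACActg
Gm25395: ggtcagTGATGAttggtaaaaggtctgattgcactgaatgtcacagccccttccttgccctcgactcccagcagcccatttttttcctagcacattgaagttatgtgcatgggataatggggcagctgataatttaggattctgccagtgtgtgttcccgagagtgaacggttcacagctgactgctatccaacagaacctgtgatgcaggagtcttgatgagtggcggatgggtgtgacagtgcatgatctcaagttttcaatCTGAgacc

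A sequence of equal length was found for 281 of the 297 members. Both C/D letters were present in 49 of 79 Snord names (62.0%), in none of 38 Snora names, in 4 of 9 Scarna names and in 44 of 155 Gm names (28.4%), against 0.0249% of 4019 other GENCODE transcripts of 60 to 350 bases. The ACA letters were present in 32 of 38 Snora names (84.2%), in none of the 79 Snord names, in 2 of 9 Scarna names and in 71 of 155 Gm names (45.8%), against 2.29% of the other transcripts. The Gm names thus held members with either set of letters. The classes also differed in length: Snord names had a median of 84.5 bases (64 to 238), Snora names 133.5 bases (127 to 205) and Scarna names 140 bases (70 to 414).

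Levels per length spanned several orders of magnitude. Of the 297 members, 51 averaged at least 1000 over the 12 libraries and 77 averaged under 10, and 234 passed the filter of at least 10 in at least 3 libraries, the 63 others averaging between 0.566 and 12.5. The median per kilobase was 2862 for Snord names, 903 for Snora names, 307 for Scarna names and 245 for Gm names. For the 75 Snord names without the U3 rows it was 1585. Not every row is a separate measurement. The 4 genes Snord3b1 to Snord3b4 each have 2 rows with the same start that differ by 1 base in length, the 4 rows of each length share all 12 values, and 22 rows lie in 11 overlapping pairs on one strand, so the reads of such rows cannot be told apart. Distinct values were counted once where stated.

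Among the C/D members, Gm25789 had the highest mean per kilobase, 267238. It lies within Gas5 at chr1:160865878-160865953 on the plus strand of mm39, the build of every coordinate here. It read 8663, 10207 and 8468 in tumour-bearing KO livers, 24090, 13054 and 41322 in tumour-bearing WT livers, 30102, 11155 and 43482 in tumour-free KO livers, and 22783, 5541 and 24855 in tumour-free WT livers. The values of tumour-bearing KO livers lay close together and below those of the other groups, apart from tumour-free WT replicate 2. Snord17, a long C/D RNA within Snx5 at chr2:144107899-144108136 on the minus strand, averaged 108315 per kilobase. It read 5965, 8097 and 17361 in tumour-bearing KO livers and 24564, 17265 and 30512 in tumour-bearing WT livers, with an overlap between replicate 3 of the first and replicate 2 of the second. In tumour-free mice Snord17 read 20649, 11300 and 122797 in KO livers against 11385, 17521 and 21931 in WT livers, the KO values other than replicate 3 lying within or next to the WT range.

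By the mean over the 12 libraries, U3 stood next among Snord names. It base-pairs with the precursor of the small-subunit ribosomal RNA. Snord3b1 (ENSMUSG00000119262), within the span of Tex14 on chromosome 11, averaged 73204 per kilobase. Its rank rests on tumour-free KO replicate 3, where it read 142913 against 1253 to 7395 in the other 11 libraries. This row read 1253, 1819 and 5339 in tumour-bearing KO livers, 5647, 7395 and 4169 in tumour-bearing WT livers, 3940, 2765 and 142913 in tumour-free KO livers, and 2237, 5252 and 6140 in tumour-free WT livers. The Snord3a row with the printed sequence, at chr10:40134463-40134675 on the plus strand, read 253, 435 and 1139 in tumour-bearing KO livers, 1637, 1195 and 1225 in tumour-bearing WT livers, 1277, 747 and 20117 in tumour-free KO livers, and 719, 1237 and 1978 in tumour-free WT livers. Both U3 genes were highest in tumour-free KO replicate 3 by a wide margin and lowest in tumour-bearing KO replicate 1.

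U14, which acts in cutting the precursor as well as in methylation, has several copies in Hspa8, the gene of a constitutive heat-shock chaperone. Snord14d, at chr9:40715291-40715376, read 1827, 2190 and 2026 in tumour-bearing KO livers, 3697, 1781 and 6668 in tumour-bearing WT livers, 5323, 3188 and 5924 in tumour-free KO livers, and 4202, 500 and 4220 in tumour-free WT livers. Snord14c of the same host had the same outlying low value, 651 in tumour-free WT replicate 2, while Snord14e read 1001 there against 786 and 950 in the other tumour-free WT libraries. Hspa8 itself read 16899 in that library, between the 18911 and 12161 of the other tumour-free WT libraries. The other C/D RNAs with roles in processing were far less abundant: U8 (Snord118), needed for the large-subunit RNAs, averaged 502 per kilobase and U13 (Snord13) 798 per kilobase. Snord118 read 0, 29.9 and 55.4 in tumour-bearing KO livers, 76.4, 24.5 and 89.7 in tumour-bearing WT livers, 37.8, 41.4 and 335 in tumour-free KO livers, and 55.3, 5.26 and 61.5 in tumour-free WT livers. Snord13 stayed between 24.7 and 133 in the 12 libraries. No member row bore a name of the imprinted Snord115 and Snord116 families, known from brain, and the Gm names were not searched for copies of them.

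Rpl13a, the gene of a ribosomal protein, hosts Snord32a, Snord33, Snord34 and Snord35a, C/D RNAs that have been tied to the response of cells to lipid overload. Snord32a, at chr7:44776806-44776888, read 427, 605 and 490 in tumour-bearing KO livers, 699, 612 and 1584 in tumour-bearing WT livers, 1126, 684 and 992 in tumour-free KO livers, and 896, 1027 and 1015 in tumour-free WT livers. The 3 values of tumour-bearing KO livers lay below every other library. Of the 4 members of this host, Snord32a had the highest mean per kilobase, 10196, followed by Snord34 with 6654, Snord35a with 4222 and Snord33 with 568. Snord33 went the other way from its neighbours in tumour-free KO replicate 3, where it read 12.9, against 36.9 and 53.9 in the other 2 tumour-free KO libraries.

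Members of one host differed widely in level, although they lie in the span of one gene. The 9 member rows within Gas5, a non-coding gene, ran from 150 per kilobase (Gm22489) to 267238 per kilobase (Gm25789), a range of 1783-fold. The 4 members within Taf1d, which encodes a subunit of an RNA polymerase I factor, ran from 8.14 (Gm22620) to 44278 per kilobase (Gm25791), and the 7 within Snhg1, another non-coding host, from 24.0 (Gm24453) to 12935 per kilobase (Gm25894). Gm22620 and Gm24453 averaged 1.08 and 1.83, near the floor, and did not pass the filter. The lowest members that passed were Gm24299 in Taf1d, with 934 per kilobase, and Gm22680 in Snhg1, with 1571 per kilobase. In all, 279 members lie within the span of 169 host genes on the same strand, 228 in protein-coding and 51 in non-coding (lncRNA) hosts, and 113 hosts hold 1 member. By kind of host, members had a median of 2161 per kilobase in 25 lncRNA hosts, 1193 in 27 ribosomal protein genes, 480 in 8 translation factor genes and 301 in 109 other protein-coding genes.

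**Figure D2:**
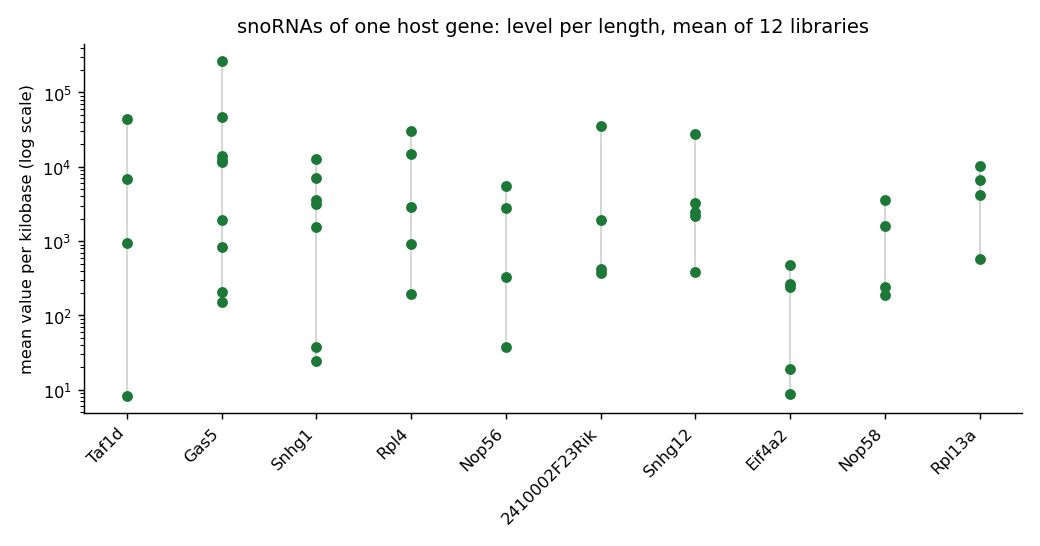
Mean value per kilobase over the 12 libraries, on a log scale, of each member (point) in 10 of the host genes with at least 4 member rows, ordered by the range within the host. Gas5 spans 150 to 267238 per kilobase and Rpl13a 568 to 10196 per kilobase. Members that did not pass the filter are drawn too.

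Among the H/ACA members, Snora73a (U17), which acts in processing of the ribosomal RNA precursor, had the highest mean per kilobase of the Snora names, 44717. It lies within Snhg3 at chr4:132080086-132080290 on the minus strand. It read 2515, 2846 and 4736 in tumour-bearing KO livers, 10006, 4196 and 12510 in tumour-bearing WT livers, 9017, 3622 and 36046 in tumour-free KO livers, and 5894, 10759 and 7857 in tumour-free WT livers. Its close relative Snora73b, from the same host, averaged 1541 per kilobase and had another order of groups: 424, 345 and 461 in tumour-bearing KO livers, 344, 235 and 403 in tumour-bearing WT livers, 195, 274 and 526 in tumour-free KO livers, and 229, 120 and 235 in tumour-free WT livers. Reads of 2 such similar RNAs may have been split between their rows. Next by level came Snora30 (33033 per kilobase) and Snora61 in Snhg12 (27251 per kilobase). Some H/ACA members with a Gm name were more abundant still: Gm25492, which bears the ACA letters, has the biotype scaRNA and lies within Bud23 at chr5:135082842-135082970, averaged 101293 per kilobase, and Gm25117, within Nap1l1 at chr10:111317354-111317497, 70978 per kilobase.

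Of the 21 scaRNA rows 14 carry a Gm name, and the most abundant are among these: Gm25492, described above, and Gm22009 with 33449 per kilobase. Scarna names were the least abundant of the named classes. Among them Scarna13, within the span of Snhg10, led with 2619 per kilobase, followed by Scarna17 with 1050, Scarna3b with 502 and Scarna3a with 464 per kilobase. Scarna13 read 713, 621 and 825 in tumour-bearing KO livers, 726, 640 and 646 in tumour-bearing WT livers, 661, 585 and 630 in tumour-free KO livers, and 615, 851 and 1127 in tumour-free WT livers. Tumour-free KO replicate 3 did not stand out in it. Scarna2, a long scaRNA for which no same-strand host was found, averaged 307 per kilobase and read 112 in that library against 52.0 to 256 in the other 11. Scarna3a read 0, 24.7 and 13.8 in tumour-bearing KO livers, 54.0, 33.1 and 144 in tumour-bearing WT livers, 52.9, 45.9 and 210 in tumour-free KO livers, and 47.4, 67.3 and 86.1 in tumour-free WT livers. Scarna9 and Scarna6 were near the filter's limit, averaging 153 and 53.9 per kilobase.

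**Figure D3:**
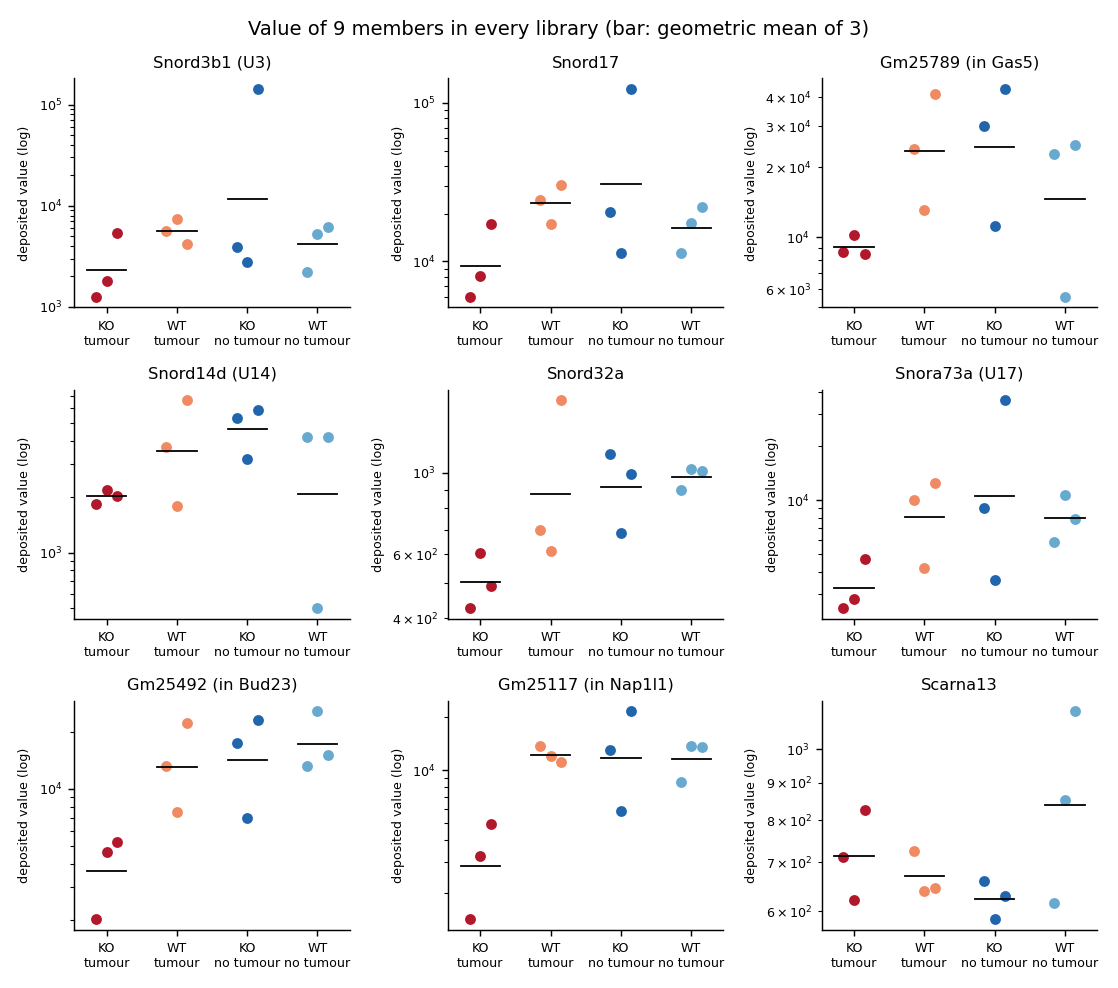
Deposited value of 9 members in every library, on log axes that differ between panels, with the 4 groups from left to right and a bar at the geometric mean of 3 libraries. Snord3b1, Snord17 and Snora73a have 1 value far above the rest in tumour-free KO livers, while Scarna13 stays between 585 and 1127 in the 12 libraries.

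Tumour-free KO replicate 3 was set against the median of the other 11 libraries, as a description of 1 library. The 225 tested members with distinct values had a median log2 ratio of 0.91 (1.88-fold), and 82 of them (36.4%) exceeded the other 11 libraries, against 10.4% of all tested genes. The 166 tested host genes of all 297 members had a median of -0.05, and 4.82% exceeded the other libraries. Of 211 members paired with a tested host, 169 had the higher ratio of the pair, with a median difference of 1.04. Against the other 2 tumour-free KO libraries the members' median was 0.56 and the difference from the host 0.65. The ratio was uneven over the classes: its median was 1.57 for 29 Snora names, 1.09 for 9 Scarna names, 0.96 for 118 Gm names and 0.55 for 66 Snord names without U3, against 4.61 for the 4 distinct U3 rows. U3 made up 70.1% of the members' signal in this library and 7.83% to 27.6% in the others. Without the U3 rows the members held 1.49% of the signal, against 0.257% to 1.25% in the other 11 libraries.

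The highest ratios there among members averaging at least 50 were those of Gm25395, the U3 rows of Snord3b and Gm24201. The mean was taken over all 12 libraries, this one included. Gm25395, of biotype scaRNA and with the C/D letters, has 272 bases and lies within Atg16l1, an autophagy gene, at chr1:87704660-87704931. It read 3596 in tumour-free KO replicate 3, 60.9 times the median of the other libraries, where it ran from 7.40 to 131. Scarna6, in the same host, read 108 there and 0 to 21 elsewhere, while Atg16l1 itself read 541 there and 540 to 863 elsewhere. The U3 rows of Snord3b had ratios of 34.3 and 41.6. Gm24201, a member of 125 bases within Eif4a2, read 438 there against 2.47 to 74.7 elsewhere, a ratio of 36.4. Snord118 had a ratio of 8.11, Snora30 of 7.38, Snord17 of 7.07 and Snora73a of 6.12. Others were low in this library: Snora78 read 21 against 17.3 to 200 elsewhere, Snord8 in Chd8 26.3 against 8.41 to 130, and Gm24299 in Taf1d was at or near 0 against a median of 72.4 elsewhere, being near 0 also in tumour-free WT replicate 2. Some other short non-coding RNAs were high in the same library, and others were not. snRNA rows held 5.32% of its signal, against 0.374% to 2.05% in the other libraries, the signal recognition particle RNA Rn7s2 read 432103 against 5210 to 55676, and the RNase P RNA Rpph1 11270 against 539 to 2053. Rmrp, the RNA of the related RNase MRP, read 979, within the 304 to 1412 of the other libraries, and both rows of the telomerase RNA Terc were at 0 there. Protein-coding genes held 83.7% of its signal, against 92.2% to 95.7%. Whether these shifts share a source with that of the snoRNAs was not tested.

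Shorter and longer members differed in several libraries, and in different directions. In tumour-free KO replicate 3 the median log2 ratio was 0.69 for 64 members of 60 to 79 bases, 0.81 for 62 from 80 to under 130 bases, 1.30 for 60 from 130 to under 140 bases, and 1.16 for 35 of 140 bases or more without U3. In tumour-bearing KO replicate 1 the 107 members under 100 bases had a median ratio of -1.33 to the other libraries, and the 99 members of at least 130 bases -2.27. In tumour-free WT replicate 2 the order was turned round, with -0.79 for the shorter and -0.06 for the longer members. Gm23344, of 68 bases, read 77.8 in that library and 1386 and 1420 in the other tumour-free WT libraries, while Gm25492, a longer member, read 25880 there and 13214 and 15128 in the others. Tumour-bearing WT replicate 3 was high in both, at 1.31 for the shorter and 0.97 for the longer members. The host genes' medians stayed between -0.11 and 0.09 in every library. Since Snord names are mostly short and Snora names mostly long, class and length cannot be told apart in these medians. Among Snord names alone without U3, 10 members of at least 100 bases had a median ratio of 0.38 in tumour-free KO replicate 3, and 56 shorter ones 0.59.

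**Figure D4:**
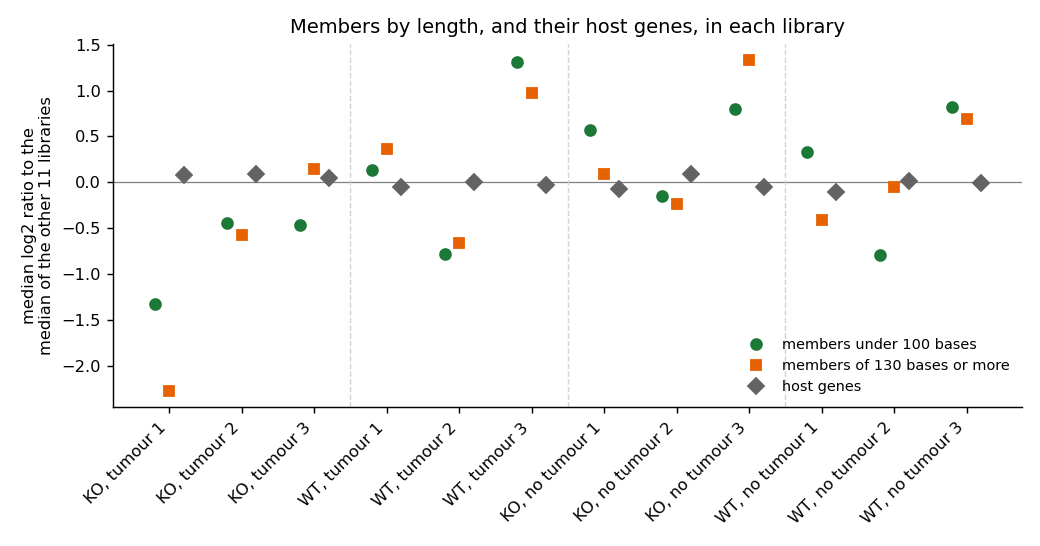
Median log2 ratio of each library to the median of the other 11, for 107 members under 100 bases, 99 members of at least 130 bases and the 166 tested host genes of all 297 members. Tumour-bearing KO replicate 1 lies at -1.33 and -2.27 for the shorter and longer members, tumour-free WT replicate 2 at -0.79 and -0.06, and the host genes stay between -0.11 and 0.09.

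The first comparison asks how the liver of tumour-bearing mice differs with loss of Mtdh. Members tended to read lower in tumour-bearing KO than in tumour-bearing WT livers: the median log2 fold change of the 234 tested members was -0.90, with 213 below 0, against a median of -0.12 and 57.2% below 0 for the 17380 tested genes. No member passed the test (limma, Benjamini-Hochberg adjusted p under 0.05 over all tested genes), where 0.023% of all tested genes did. An unadjusted p under 0.05 was reached by 39 members, 37 of them with lower values in KO, against 14.4% of all genes. The 3 KO libraries lay below the 3 WT libraries in 33 members, against 9.8% of all genes, and above them in 3, against 8.11%. The classes had like medians: -0.85 for 76 Snord names, -0.88 for 29 Snora names, -1.22 for 9 Scarna names and -0.91 for 120 Gm names. The 166 tested host genes had a median of 0.12, and of 211 members paired with their host 176 had the lower fold change of the pair.

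Gm25117 had the smallest p of the members with lower values. It read 1415, 3266 and 4939 in tumour-bearing KO livers against 13650, 12078 and 11108 in tumour-bearing WT livers, with no overlap. Its log2 fold change was -2.11 ± 0.45 (SE) with an adjusted p of 0.128, and that of its host Nap1l1, a histone chaperone gene, was -0.32 ± 0.20. Gm25492 read 2027, 4625 and 5214 in tumour-bearing KO livers against 13162, 7514 and 22334 in tumour-bearing WT livers, again with no overlap, a log2 fold change of -1.83 ± 0.48 and an adjusted p of 0.159. Its host Bud23, whose product methylates 18S ribosomal RNA, had 0.54 ± 0.45. Gm25117 and Gm25492, like Gm23991 and Snora61 below, are named because of their p, after their values were seen. Gm23991, a 93-base member within 2410002F23Rik, had a log2 fold change of -1.12 ± 0.31, and Snora61, of the lncRNA host Snhg12, -1.24 ± 0.38, with adjusted p-values of 0.172 and 0.204.

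Among members averaging at least 50 whose groups did not overlap, the largest differences were those of Gm23212 in Gas5, Scarna3a and Gm25835. Gm25835, a member of 144 bases in Eif4a1, read 14.8, 241 and 350 in tumour-bearing KO livers against 920, 614 and 1422 in tumour-bearing WT livers, with a log2 fold change of -3.08 ± 0.94 and an adjusted p of 0.205. Gm23212 was at or near 0 in tumour-bearing KO replicate 1, the shallowest library, and read 75.8 and 78.1 in the other 2, against 146, 115 and 259 in tumour-bearing WT livers (adjusted p 0.287). Scarna3a had a log2 fold change of -3.16 ± 1.09 with an adjusted p of 0.241. The 3 members with higher values in every KO library, named after their values were seen, averaged less than 50. Gm26205 read 202, 110 and 94.8 in tumour-bearing KO livers against 0.197, 22.2 and about 0 in tumour-bearing WT livers, and Gm23346 read 66.6, 24.7 and 28.5 against 12.97, 19.6 and 22.2 in the same order of groups. Gm26447, within Eif4a2 at chr16:22930051-22930179, read 308, 37.0 and 62.0 in tumour-bearing KO livers and 0.179 or less in each of the other 9 libraries, while Eif4a2 read 13175, 14440 and 19235 in tumour-bearing KO livers against 14534, 12305 and 25551 in tumour-bearing WT livers. Gm26447 met the filter only through the 3 libraries in which it is high, so its log2 fold change on the log2(value + 1) scale, 6.42 ± 1.11 with an adjusted p of 0.0607, is given as a description. Its values outside tumour-bearing KO livers are fractions of 1 read, and the reads of the host's RNA and of the snoRNA cannot be told apart within the span of Eif4a2.

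In this comparison the member median was -0.51 without tumour-bearing KO replicate 1 and -0.49 without tumour-bearing WT replicate 3, and the members with an unadjusted p under 0.05 numbered 14 and 12. With library weights, which give libraries that deviate more a smaller part in the fit, the median was -0.52 and 16 members passed (6.84% of those tested), below the 9.57% of all tested genes that passed in that fit. Among the 16 were Gm25117, Gm25492, Gm23991, Snora61, Scarna3a and Gm25835. Gm26447 and Gm26205, which read higher in tumour-bearing KO livers, were among them too. Tumour-bearing KO replicate 1 also had the highest share of ribosomal RNA, 0.367% against 0.0382% to 0.201% in the other 11 libraries, and the fewest members at 10 or more, 159 against 188 to 229. It had the fewest genes of any kind above 0 as well, 14899 against 17772 to 20365. The 5 neutrophil markers summed to 2.65 to 6.47 per 1000000 of signal in tumour-bearing KO livers and 8.70 to 14.1 in tumour-bearing WT livers, with S100a9 at 0 in 2 of these KO libraries and S100a8 and Ly6g at 0 in 1 each. Cxcr2 was lower in every KO library, while Mmp9 overlapped, at 143, 40.3 and 86.9 in tumour-bearing KO livers against 105, 97.9 and 90.8 in tumour-bearing WT livers. Other lists also kept these groups apart on the same scale. The 6 nuclear-retained RNAs, Xist, Malat1 and Neat1 among them, summed to 2705 to 4393 in tumour-bearing KO livers and 4524 to 6003 in tumour-bearing WT livers. In deposited value Xist, Malat1 and Neat1 each overlapped between the groups, while Firre was lower in every KO library. Neat1 read 2932, 3925 and 12123 in tumour-bearing KO livers against 6774, 8065 and 2462 in tumour-bearing WT livers. The 4 proliferation markers summed to 5.89 to 12.5 in KO against 17.8 to 24.6 in WT, and only Cdk1 of them overlapped in deposited value. The 5 stellate cell and fibroblast markers summed to 473 to 572 against 586 to 696. Of these only Col3a1 was lower in every KO library in deposited value. Col1a1 read 1233 in tumour-bearing KO replicate 1, against 151 to 355 in tumour-bearing WT livers. The sum of the 5 endothelial markers was higher in KO, by a narrow gap, at 279.9 to 451 against 254 to 279.6. Each of these 5 markers overlapped between the groups in deposited value. Pecam1 read 9256 in tumour-bearing KO replicate 1, while Stab2 read 1534, 1567 and 1849 in KO against 2352, 1595 and 2024 in WT. The part of depth, nuclear RNA and cell types in the snoRNA values was not tested.

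With and without a tumour in KO mice, the same tumour-bearing KO libraries enter again, so the values are not a second, separate observation of them. The member median was -1.12, with 214 of 234 below 0, against -0.08 and 54.3% for all tested genes. No member passed the test with limma and neither did any of the 17380 genes (0%). Unadjusted p under 0.05 was found for 77 members, 75 of them with lower values in tumour-bearing mice. Among all genes it was found for 12.7%, or 2209 genes, 1317 of them with lower values. The 77 include the 10 U3 rows, and without U3 and repeated rows the count was 66 of 221. In 74 members each tumour-bearing KO library lay lower than each tumour-free one, against 9.48% of all genes. Another 2 lay higher in each, against 7.34%: Gm26447, which met the filter only through the tumour-bearing KO libraries, and Gm26205, at 202, 110 and 94.8 in tumour-bearing KO livers against 0.322, 31.3 and about 0 in tumour-free KO livers. The median was -1.05 for Snord names, -1.19 for Snora names, -0.55 for Scarna names and -2.43 for the 10 U3 rows, and 0.07 for host genes. Gm25117 read 1415, 3266 and 4939 in tumour-bearing KO livers against 12983, 5823 and 21683 in tumour-free KO livers, with a log2 fold change of -2.05 ± 0.45 and an adjusted p of 0.283. Among members averaging at least 50 the largest differences without overlap were those of Gm55458 in Atp5b (-3.78 ± 1.56), Gm25776 in Gtf2a1 (-3.64 ± 1.25) and Snora34 in Kansl2 (-3.54 ± 1.32), each at 0 or below 1 in tumour-bearing KO replicate 1. Gm55458 read 0.241, 14.6 and 21.6 in tumour-bearing KO livers against 101, 69.8 and 154 in tumour-free KO livers. Gm25776 read 0, 43.6 and 32.3 against 117, 56.4 and 426 in the same order of groups. Snora34, an H/ACA RNA, read 0, 11.1 and 22.3 in tumour-bearing KO livers against 35.9, 32.3 and 358 in tumour-free KO livers, so that the nearest values of the groups lay close together. The member median was -0.75 without that library, -0.83 without tumour-free KO replicate 3 and -0.47 without both, and the members with an unadjusted p under 0.05 numbered 24, 12 and 4. The 33 tested snRNA rows had a median of -1.39 here and of -0.90 in the comparison of KO with WT tumour-bearing livers.

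Among tumour-free mice, members read somewhat higher in KO than in WT livers. Their median log2 fold change was 0.35, and 177 of 234 were above 0, against -0.01 and 49% above 0 for all tested genes. No member passed the test, where 0.00575% of all tested genes did, and 1 member had an unadjusted p under 0.05, against 1.93% of all genes. In 2 members each KO library lay above each WT library, against 3.56% of all genes, and in 2 below, against 4.37%. The member with that p, Snora74a within Snhg4, read 92.3, 44.8 and 88.1 in tumour-free KO livers against 26.2, 0 and 58.2 in tumour-free WT livers, groups that overlap, with a log2 fold change of 2.63 ± 1.16 and an adjusted p of 1. The median was 0.66 for Snora names, 0.30 for Snord names, 1.48 for U3 rows and -0.05 for Scarna names. The only member averaging at least 50 whose groups did not overlap was Gm23547 in Phb2, at 528, 466 and 471 in tumour-free KO livers against 537, 837 and 683 in tumour-free WT livers. The member median was 0.03 without tumour-free KO replicate 3 and 0.02 without tumour-free WT replicate 2.

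In WT mice with a tumour against WT mice without one, the median log2 fold change of the members was 0.16, with 158 of 234 above 0, against 0.00 and 50.4% above 0 for all tested genes. No member passed the test, where 0.679% of all tested genes did, and no member had an unadjusted p under 0.05, against 8.67% of all genes. Each tumour-bearing library lay above each tumour-free one in 1 member, against 9.46% of all genes, and below in 2, against 8.05%. The median turned to -0.20 without tumour-bearing WT replicate 3 and to -0.14 without tumour-free WT replicate 2. Snora73b (U17) was the only member averaging at least 50 whose groups did not overlap, with a log2 fold change of 0.78 ± 0.39 and an adjusted p of 0.642. In the test of whether the effect of the tumour differed with genotype, no member passed, nor did any of the 17380 genes (0%), and 21 members had an unadjusted p under 0.05, against 4.7% of all genes. The member median of that difference was -1.37, with 213 of 234 below 0 against 55% of all genes, and ran from -0.85 without tumour-bearing KO replicate 1 to -1.82 without tumour-bearing WT replicate 2.

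**Figure D5:**
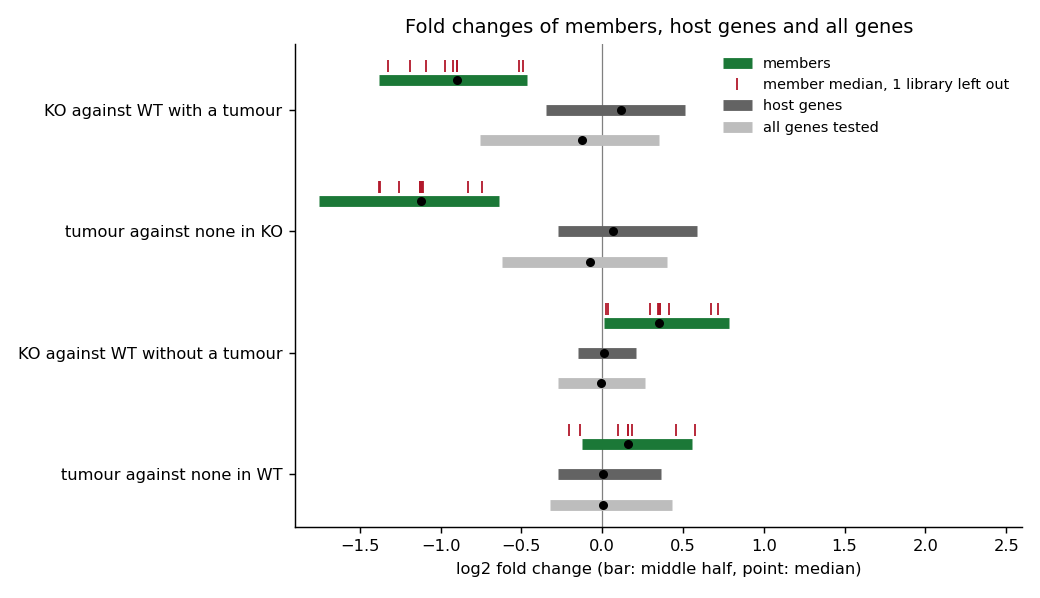
Log2 fold changes of 234 tested members, 166 host genes and 17380 tested genes in 4 comparisons, with bars between the quartiles of each set, points at the medians and ticks at the member median after leaving out each of the 12 libraries in turn. Members lie at -0.90 and -1.12 in the 2 comparisons that hold tumour-bearing KO livers, and host genes at 0.12 and 0.07.

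The genes of the snoRNA machinery were examined beside the members. Of the 4 core proteins of C/D particles (Fbl, Nop56, Nop58 and Snu13), the 4 of H/ACA particles (Dkc1, Nhp2, Nop10 and Gar1), 16 assembly and Cajal body factors, 11 genes of snoRNA trimming and decay and 27 genes of ribosome biogenesis and RNA polymerase I, none passed the test in any of the 5 comparisons. In tumour-bearing KO against WT livers the medians were 0.27 for C/D proteins, 0.50 for H/ACA proteins, 0.21 for assembly factors, 0.16 for trimming and decay and 0.15 for ribosome biogenesis, against -0.90 for the members. Nop56, which also hosts 4 snoRNAs, had the largest of the C/D values, 1.16 ± 0.48 with an adjusted p of 0.301. Dkc1, the gene of dyskerin, had 0.73 ± 0.25 with an adjusted p of 0.234. Per 1000000 of signal the 4 H/ACA genes summed to 33.5 to 35.0 in tumour-bearing KO livers against 16.4 to 33.2 in tumour-bearing WT livers, a narrow gap. In deposited value only Dkc1 of these 4 was higher in every KO library, at 651, 546 and 602 against 305, 454 and 339.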

How the data were processed

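RNA was measured in 12 livers. Per the labels' protocols, total RNA was depleted of ribosomal RNA, fragmented and sequenced on Illumina libraries; very short RNAs and their fragments may be kept unevenly by such libraries. The deposited values are a normalized signal, reads per gene divided by a size factor for each library. STAR 2.7.8a, Partek, DESeq2 and mm39 are named in the submitters' processing notes; no source used here gives the counting program, annotation release, filter or strand setting. Fractions of reads were common (77.0% to 83.1% of low values were whole within 0.01 reads), so no count model was used.

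Genes with at least 10 in at least 3 libraries entered limma 3.58.1 (R 4.3.3) as log2(value + 1) (eBayes with trend, all 12 libraries in one fit, Benjamini-Hochberg adjustment over 17380 genes), after a check on simulated data. Replicates are different mice. Depth is the summed value divided by the smallest repeated step. Hosts are same-strand genes whose span contains the member; introns were not checked. Printed ends are 1 base before the table's stop. Members were named by rule: the highest per length in each class, known roles, the largest differences without overlap (mean of at least 50), and the extremes of tumour-free KO replicate 3 (mean of at least 50); others were named for a small p or another feature after their values were seen. The members and lists were chosen with earlier results of these data known. Other scalings, filters, pseudocounts, weights and left-out libraries were tried. With 3 against 3, an exact permutation test cannot go below p = 0.1 and was not used.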

Additional observations from a re-analysis of the deposited data

How the results depend on the processing

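Counts of members past the test were 0 in the 5 comparisons and stayed 0 in most settings. In tumour-bearing KO against WT livers the count was 1 with a pseudocount of 10 (17 genes in all), 1 without a filter (16 genes), 16 with library weights, and 0 to 2 with 1 library left out. The 1 member was Gm26447 in both settings, and it was also among the 16. Gm26447 is higher in tumour-bearing KO livers, the only libraries through which it met the main filter. The 2, Gm26447 and Gm22357, were found without tumour-bearing WT replicate 2, where 211 genes passed (0.855% of members, 1.23% of genes). In KO mice with against without a tumour the count was 1 with library weights (14 genes), again Gm26447. With library weights 1664 genes passed in tumour-bearing KO against WT livers, against 4, and 510 against 118 in WT mice with against without a tumour, which was 11 without tumour-bearing WT replicate 3; the cause was not tested. The member median in KO mice with against without a tumour was -0.47 without tumour-free KO replicate 3 and tumour-bearing KO replicate 1, and the median of the interaction was -0.58 without both and -0.61 with library weights. Medians without U3 and repeated rows, a setting chosen after seeing the data, were -0.88, -1.09, 0.29, 0.15 and -1.29 in the order of the report. With the replicate number as a block, 0 members passed in the 5 comparisons. Each number occurs once in every group, so this block cannot change a fold change, and the member medians stayed as they were. Members with an unadjusted p under 0.05 numbered 66, 104, 6, 4 and 65. The numbers do not pair the mice: deviations of same-numbered libraries correlated at -0.09 to 0.10, and 3 of 12 libraries correlated best with their own number.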
